A study of Ovis aries with 16 samples.

Results

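Cathelicidins are host defence peptides that neutrophils of ruminants make as precursors during maturation in the marrow and store in their granules. Beta globin is the beta chain of haemoglobin, and its messenger RNA is carried by erythroid cells and by young red cells in the circulation. Neither is a product that heart muscle cells are known for. This account covers the 3 cathelicidin genes CATHL3, CATHL1B and BAC5 and the beta globin gene HBB in the left ventricle of fetal sheep. Their probes were taken from the array by gene name, accession or description, which gave 7 of the 15008 probes that were not controls, for 4 of the 859 genes with a name here. The cathelicidins were chosen by their high losartan-over-twin log2 ratios in these same arrays, and HBB was taken as another product of blood-borne cells, so every losartan-over-twin difference of a member below is a description and carries no test. The tests of covariation further on use the twin ratios of both arms with the mean of each arm taken out.

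The study used 16 fetal sheep of 8 twin pregnancies, with 1 array per fetus and 4 arrays in each of 4 groups. Catheters were placed in fetal vessels at 125 to 126 days of gestation, where term is 145 days, and the hearts were taken after 5 days of treatment. In twin sets 1 to 4, 1 fetus received losartan, which blocks the angiotensin II receptor AT1, by intravenous infusion, and its untreated twin was the control. In twin sets 5 to 8, 1 fetus received an intravenous infusion of angiotensin II, the vasoactive peptide that acts through that receptor, and again the untreated twin was the control. The untreated fetuses are labelled as having no infusion, and whether they were catheterized is not said in the labels, which also name no strain or genotype. The labels call the infusions daily in 1 field and continuous in another, and give the tissue as the free wall of the left ventricle in 1 field and as free wall plus septum in another. The RNA integrity number was between 7.5 and 10, per the labels' protocols. Each array is 1 fetus with its own label, and no array repeats another.

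A level here is the log2 processed red-channel signal of a probe minus the 75th percentile of its array, and a twin ratio is the level of the treated fetus minus that of its untreated twin. The 75th percentile lay between 1124 and 1709 fluorescence units, and an array had 57.3% to 64.1% of its probes well above background. To be tested a probe had to reach that mark on all 4 arrays of a group, in any of the 4 groups, which left 8966 probes. All 7 member probes passed, each of them well above background on 16 of 16 arrays, so no group alone let a member in, and no probe was saturated. Of 26 listed cardiomyocyte markers 2 were on the array, MB (myoglobin) and TPM1 (a tropomyosin), which other muscle also expresses, so they check the label as muscle and not as ventricle. Both were well above background on 16 of 16 arrays. The untreated fetus of set 2 and the angiotensin II fetuses of sets 7 and 8 stood apart from the other 13 arrays on the first principal component, which held 32.1% of the variance. Their arrays lay side by side on slide 2 (row 2, columns 2 to 4). The bright corner control spots read 17.7, 17.7 and 17.2 there on the log2 scale, against 14.4 to 15.4 on the other 13 arrays. Whether the fetuses or the arrays set them apart was not tested. The members' estimates in the angiotensin II arm are therefore also given without sets 2, 7 and 8. The signal is from whole tissue, in which fewer cells of a type and less RNA per cell cannot be told apart.

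The sequences below show what each probe reads. The 5 cathelicidin probes lie at the 3′ ends of their transcripts, and the last 30 of the 60 bases of the brighter probe of each gene are printed with the polyadenylation signal AATAAA in capitals. SC5, a cathelin-related gene of the same family, is printed in the same way.
CATHL3: gacggtgaaaAATAAAttctggtgaagaca
CATHL1B: tggatctgaaaAATAAActcttgtgacatg
BAC5: agtcagcatccaaaaAATAAAatcttgtgg
SC5: tgagaAATAAAttcttgtgagaacaaattc
HBB, last 30 bases: agctgagtgagctgcactgtgataagctgc
The brighter HBB probe lies within the transcript, holds no such signal and is printed without capitals. In the 60 bases the longest run shared between probes of different member cathelicidins was 11 bases, between CATHL3 and CATHL1B, and CATHL3 and SC5 shared a run of 12. BAC5 shared at most 9 bases in a row with either of the other members. The 2 probes of CATHL1B are shifted by 1 base and share 59 of their 60 bases, as do the 2 probes of BAC5, so each such pair reads 1 target and counts once. The brighter HBB probe is also assigned to HBBC, a beta globin gene that sheep express under anaemia, so transcripts of HBB and HBBC cannot be told apart by it. The second HBB probe was designed on an expressed sequence tag and shares at most 7 bases in a row with the first, so its sequence is separate. That it reads HBB rests on the name given to that tag and was not tested. In the sheep RefSeq gene table (assembly ARS-UI_Ramb_v3.0) CATHL1B, CATHL3, BAC5 and SC5 lie close together on chromosome 19, with CATHL3 and BAC5 next to each other. HBB and HBBC lie in the beta globin cluster on chromosome 15.

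The member levels varied over the 16 arrays far more than those of most probes. The signal of CATHL3 ran from 205.4 to 4401.3 fluorescence units, a 21.4-fold range. CATHL1B ran from 447.9 to 12244.7 units, a 27.3-fold range, and BAC5 from 210.2 to 4541.3 units, a 21.6-fold range. HBB ran from 514.3 to 34052.5 units, a 66.2-fold range. The SD over 16 arrays was 1.36, 1.47, 1.35 and 1.63 for CATHL3, CATHL1B, BAC5 and HBB on the log2 scale, against a median of 0.24 over all tested probes. These signals depend on the sequence of each probe, so the order of the genes by signal is not an order of their transcripts.

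CATHL3, listed on the array under its older name BAC7.5, encodes a proline-rich cathelicidin precursor. Its levels in the losartan fetuses of sets 1 to 4 were 0.86, -0.68, 0.82 and 1.71. In their untreated twins they were -1.66, -1.99, -2.48 and -1.25. Every losartan array lay above every untreated array of that arm, with a gap of 0.57, and the smallest losartan level was that of set 2. Such separation was found for 247 of 8966 tested probes, 2.75%, in this arm. In the angiotensin II fetuses of sets 5 to 8 the levels were -2.12, 0.10, -2.36 and -1.15. In their untreated twins they were -1.52, -2.14, -2.98 and -0.76. Here the groups overlapped, and the fetus of set 6 was the highest of the 8 arrays.

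CATHL1B, listed under the older name DODE, encodes the precursor of the cyclic dodecapeptide, a short disulphide-bonded cathelicidin. Levels of its brighter probe were 2.72, 0.80, 2.25 and 3.19 in the losartan fetuses of sets 1 to 4. They were -0.13, 0.18, -1.25 and 0.30 in the untreated twins. These groups did not overlap, with a gap of 0.50, and set 2 again had the lowest losartan level. With angiotensin II the levels of sets 5 to 8 were -1.57, 1.70, -0.69 and 0.34. The untreated twins stood at -0.96, -0.11, -1.43 and 0.92. The groups overlapped over most of their range, and the fetus of set 6 was again the highest. The other probe differed from this one by at most 0.19 after its mean difference was removed.

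BAC5 encodes another proline- and arginine-rich cathelicidin precursor. Its brighter probe read 1.17, -0.81, 0.77 and 1.76 in the losartan fetuses of sets 1 to 4. The untreated twins read -1.61, -0.93, -2.64 and -0.84. The groups were separated by only 0.04, because the losartan fetus of set 2 was close to the untreated fetuses of sets 2 and 4. With angiotensin II it read -2.50, 0.41, -1.68 and -1.12 in sets 5 to 8. The untreated twins read -1.56, -1.45, -2.95 and -0.77. As for the other cathelicidins, these groups overlapped and the fetus of set 6 was the highest. The 2 BAC5 probes differed by at most 0.26 once their mean difference was removed.

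HBB did not separate the groups in either arm. Its brighter probe read 1.61, 1.71, 2.68 and 4.66 in the losartan fetuses of sets 1 to 4. The untreated twins read 1.14, 2.30, -0.62 and 3.24. The highest level of the study was that of the losartan fetus of set 4, whose untreated twin was the highest of its own group. With angiotensin II it read 0.85, 2.86, 3.25 and -1.42 in sets 5 to 8. The untreated twins read 2.26, 3.74, 3.08 and 0.26. In set 8 both twins were the lowest of their groups, and the angiotensin II fetus of that set was the lowest array of all. The second HBB probe followed the first over the 16 arrays (r = 0.91, a description), with differences from the mean difference of up to 1.21, the largest on the losartan array of set 3. The first probe minus the second was 1.63 and 1.43 in the losartan and untreated fetus of set 3, and 1.06 and 1.31 in those of set 4. In the other sets it was -0.525 to 0.663.

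**Figure D1:**
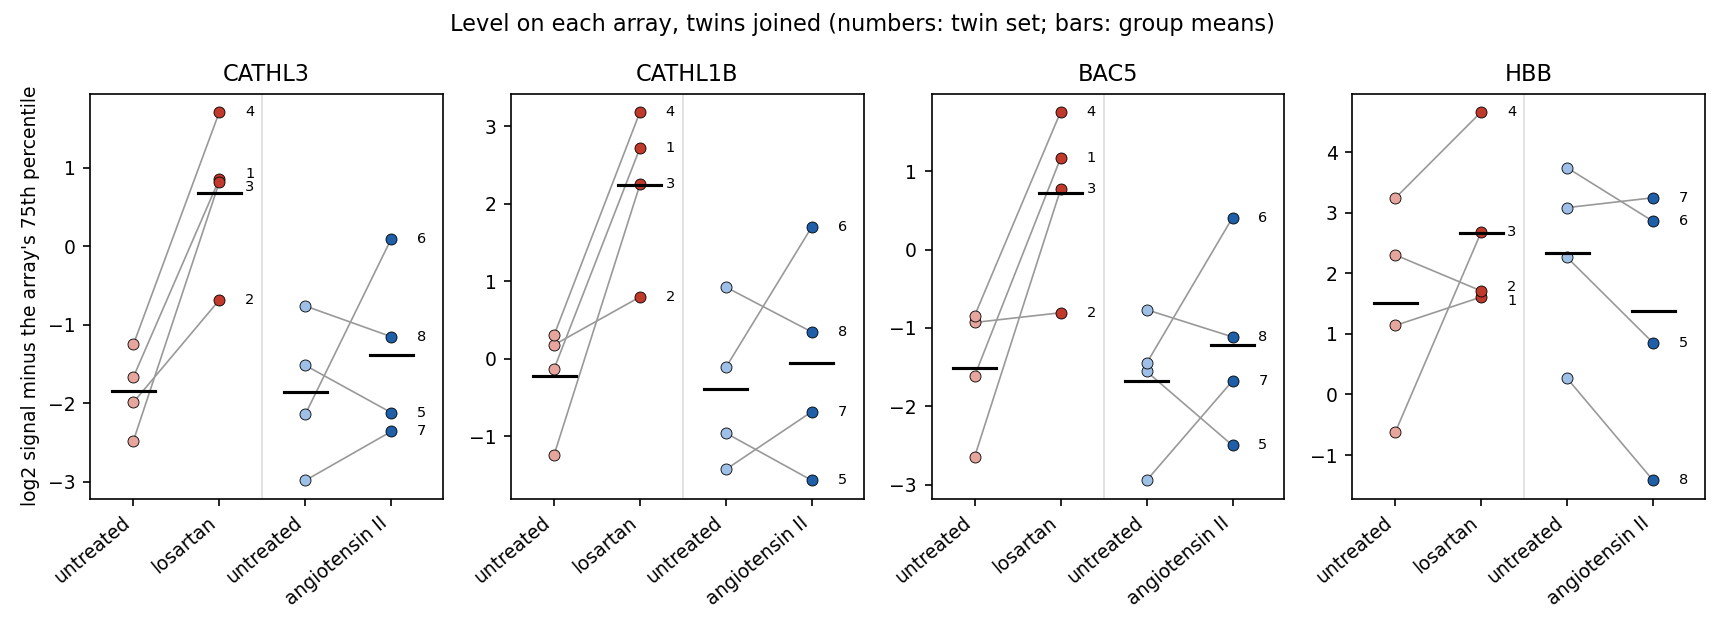
Levels of the brighter probe of CATHL3, CATHL1B, BAC5 and HBB (vertical axis, log2 signal minus the 75th percentile of the array) on 16 arrays, with twins joined by a line, the twin set beside the treated fetus and a bar at each group mean of 4 arrays; each gene has its own axis, since levels of different probes are not comparable. The 4 losartan arrays lie above the 4 untreated arrays of their arm for the 3 cathelicidins and not for HBB, and set 2 has the lowest losartan level of each cathelicidin.

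In the untreated fetuses the members also differed widely from animal to animal. Over these 8 arrays CATHL3 ran from -2.98 to -0.76 (median -1.83), a 4.66-fold range, CATHL1B from -1.43 to 0.92 (median -0.12), a 5.11-fold range, and BAC5 from -2.95 to -0.77 (median -1.50), a 4.53-fold range. The lowest value of each was that of set 7 and the highest that of set 8. HBB ran from -0.62 in set 3 to 3.74 in set 6 (median 2.28), a 20.6-fold range. Its SD of 1.54 over the untreated fetuses was the 20th largest of the 8966 tested probes, and its second probe, with an SD of 1.77, was the 12th. The cathelicidin SDs of 0.70 to 0.83 were larger than those of 97.9% to 98.8% of tested probes, whose median was 0.22. The fetus of set 8 had the highest cathelicidin levels and the second lowest HBB level, while that of set 4 was second highest in all 3 cathelicidins and in HBB.

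The twin ratios put each losartan fetus beside its own twin. The log2 ratios of CATHL3 in sets 1 to 4 were 2.52, 1.30, 3.30 and 2.96, with a mean of 2.52 ± 0.87 (SD, n = 4), or 5.74-fold. Those of CATHL1B were 2.86, 0.62, 3.50 and 2.88, with a mean of 2.46 ± 1.27 (SD, n = 4), or 5.52-fold. Those of BAC5 were 2.78, 0.12, 3.41 and 2.60, with a mean of 2.23 ± 1.45 (SD, n = 4), or 4.69-fold. All 3 cathelicidins were above 0 in 4 of 4 sets, as were 946 of the 8966 tested probes, 10.6%. Set 3 had the largest ratio and set 2 the smallest for each of them. In this contrast 109 probes, 1.22% of those tested, passed an adjusted p of 0.05 in limma, and nothing is read from the members' place among them because the cathelicidins were chosen there. The HBB ratios in sets 1 to 4 were 0.47, -0.59, 3.30 and 1.42, with a mean of 1.15 ± 1.66 (SD, n = 4), or 2.22-fold, so the spread between sets was larger than the mean. The second HBB probe gave 1.12, -0.78, 3.10 and 1.67, also above 0 in 3 of 4 sets.

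The slides divided this arm unevenly. The losartan fetuses of sets 1, 2 and 4 were on slide 2 and the untreated fetuses of sets 1, 3 and 4 on slide 1. Both arrays of set 3 were on slide 1 and both arrays of set 2 on slide 2, so the ratios of these 2 sets, the largest and the smallest for the cathelicidins, were each measured within a slide. Among the untreated fetuses the mean CATHL3 level was -2.10 ± 0.68 (SD, n = 5) on slide 1 and -1.42 ± 0.62 (SD, n = 3) on slide 2. CATHL1B and BAC5 were likewise lower on slide 1, at -0.52 ± 0.77 and -1.90 ± 0.87 (SD, n = 5) against 0.05 ± 0.95 and -1.08 ± 0.42 (SD, n = 3). HBB was higher there, at 2.12 ± 1.82 (SD, n = 5) against 1.61 ± 1.16 (SD, n = 3). These differences between slides were not tested. With slide added to the blocks, the losartan estimates were 2.24 for CATHL3, 2.10 for CATHL1B, 1.71 for BAC5 and 0.96 for HBB. Without set 2 they were 2.93, 3.08, 2.93 and 1.73, so the HBB estimate moved by a factor of over 1.5 with this 1 set. It also fell to 0.43 without set 3.

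The angiotensin II arm shared no fetus with the losartan arm and did not choose the members. In it the cathelicidins had no common direction over the twin sets. CATHL3 ratios in sets 5 to 8 were -0.60, 2.24, 0.62 and -0.39, CATHL1B ratios were -0.61, 1.82, 0.75 and -0.58, and BAC5 ratios were -0.94, 1.86, 1.27 and -0.35. Each was above 0 in 2 of 4 sets, those being sets 6 and 7. None of the 7 member probes was above 0 in 4 of 4 sets, as 733 of the 8966 tested probes were, 8.18%. Nor did any member probe have every angiotensin II array above every untreated array of the arm, as 170 tested probes did, 1.9%. The limma estimates were 0.47 (95% interval -0.52 to 1.46, adjusted p = 0.657) for CATHL3, 0.34 (-0.75 to 1.43, adjusted p = 0.769) for CATHL1B and 0.46 (-0.77 to 1.69, adjusted p = 0.721) for BAC5. None of the 7 member probes passed, and 0 of the 8966 tested probes did in limma, 0%, while 935 had an unadjusted p under 0.05. The intervals reach up to a 2.74-fold, 2.69-fold and 3.23-fold higher level, so rises up to these sizes lie within the error of 4 twin sets. Without sets 2, 7 and 8 the estimates were 0.82 for CATHL3, 0.60 for CATHL1B and 0.46 for BAC5, with adjusted p of 0.964, 0.981 and 0.990 in limma. Without set 6 the estimates were -0.12, -0.15 and -0.007, so their positive sign rested on that set.

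HBB passed no test in this arm either. Its ratios in sets 5 to 8 were -1.41, -0.88, 0.16 and -1.68, below 0 in 3 of 4 sets. The limma estimate was -0.95 (95% interval -2.12 to 0.21, adjusted p = 0.510), 0.517 times the level of the untreated twin. The second probe was below 0 in 4 of 4 sets, with ratios of -1.88, -1.05, -0.27 and -1.59. The share of all tested probes below 0 in 4 of 4 sets was not computed, so this count is a description. The estimate of the second probe was -1.20 (95% interval -2.30 to -0.09) with an unadjusted p of 0.0370 in limma and an adjusted p of 0.479. Without sets 2, 7 and 8 the estimate of the brighter probe was -1.15, and with the slide as a further block it was -0.95. The main fit took its spread from both arms, with SEs of 0.52 and 0.50 for the 2 probes. With only the arrays of this arm the SEs were 0.29 and 0.26. The unadjusted p was then 0.0135 and 0.00239 in limma, and the adjusted p 0.525 and 0.523. In set 6 the cathelicidins and HBB moved apart, with CATHL3 at 2.24 and HBB at -0.88. Sets 6 and 8 had both twins on 1 slide, and in both of these sets HBB was below 0.

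**Figure D2:**
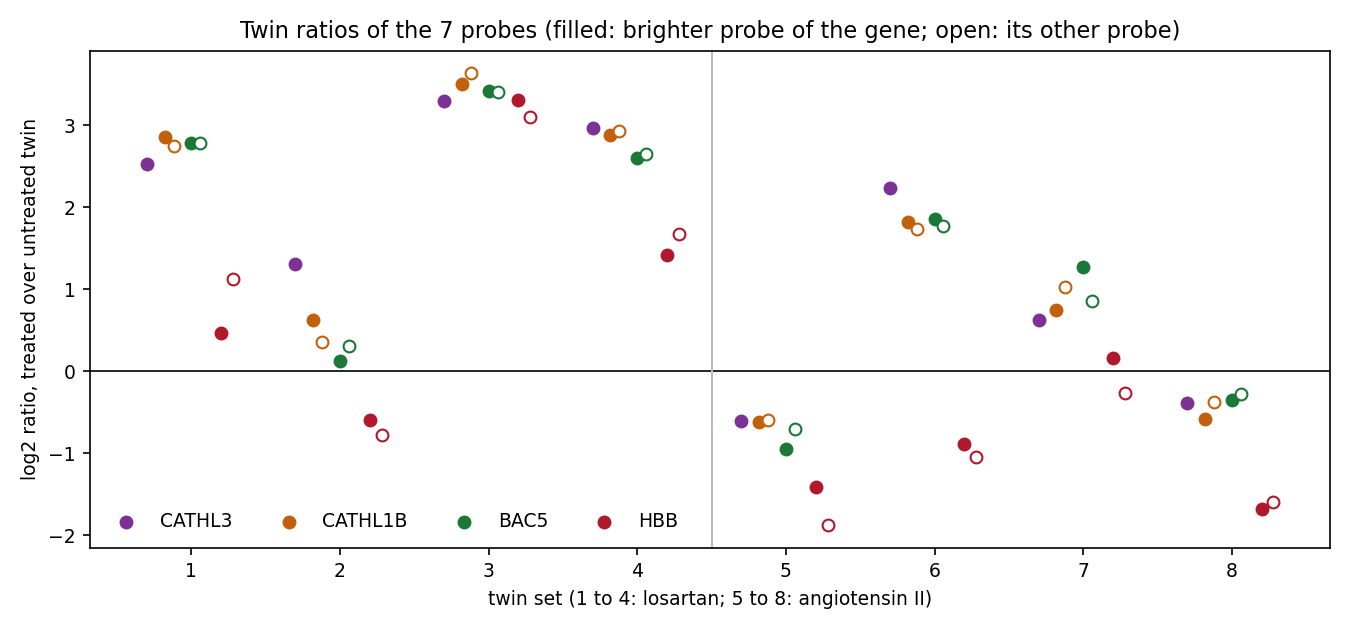
Log2 ratio of the treated fetus over its untreated twin (vertical axis) in each of 8 twin sets (horizontal axis) for the 7 member probes, filled for the brighter probe of a gene and open for its other probe. All cathelicidin points lie above 0 in sets 1 to 4, from 0.12 to 3.63, while in sets 5 to 8 they lie above 0 in sets 6 and 7 and below 0 in sets 5 and 8.

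The 3 cathelicidins moved together. Over the 16 arrays the brighter probes correlated at r = 0.956 for CATHL3 with CATHL1B, 0.962 for CATHL3 with BAC5 and 0.982 for CATHL1B with BAC5, as a description over arrays that include the losartan shift and share their scaling. Over the 8 untreated fetuses alone the same pairs were at 0.802, 0.852 and 0.915. HBB was apart from them, with r = 0.297 to the cathelicidin mean over 16 arrays, where the probes of each gene tracked each other at 0.91 or more.

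Whether the cathelicidin ratio of a twin set went with its HBB ratio was tested after the mean of each arm was subtracted, which takes out the losartan shift. Over the 8 twin sets Pearson's r was 0.616 for CATHL3 (p = 0.0851, exact permutation within arms, two-sided), 0.729 for CATHL1B (p = 0.0712, same exact test) and 0.755 for BAC5 (p = 0.0590, same exact test). Spearman's rho was 0.762, 0.762 and 0.714, with exact permutation p of 0.0660, 0.0660 and 0.0729. After Benjamini-Hochberg adjustment over the 3 cathelicidins the exact p was 0.0851 for each r, so none passed 0.05. Without sets 2 and 3, the sets farthest from the median HBB ratio, r was 0.458, 0.529 and 0.599. Without set 2 alone r was 0.435, 0.514 and 0.559, while without set 3 alone it was 0.605, 0.726 and 0.767, so the drop came with set 2. The untreated array of set 2 was among those that stood apart on the first principal component. Its part in r was not tested. Without set 6 it was 0.912, 0.871 and 0.845. When the mean over both probes of a gene was used, r was 0.812 for CATHL1B and 0.805 for BAC5, each with an exact permutation adjusted p of 0.0391, and 0.652 for CATHL3 (exact permutation adjusted p = 0.0608). The call therefore depends on which HBB and cathelicidin probes stand for the gene.

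In the raw twin ratios the signs of cathelicidin and HBB were the same in 6 of 8 sets for each cathelicidin. The exceptions were sets 2 and 6, where the cathelicidins were above 0 and HBB below. This count is a description, since the choice by high losartan ratios favoured cathelicidin ratios above 0 in that arm. Agreement in the losartan arm therefore shows only where HBB was above 0. The cathelicidins moved together, so their equal counts are not separate observations. The share of all tested probes that match the sign of HBB in as many sets was not computed. With the arm means kept, r was 0.806, 0.860 and 0.849, a description that includes the shift by which the cathelicidins were chosen. Only 4 twin sets had both arrays on 1 slide, which is too few for a value within slides.

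The relation was not seen between untreated animals. Over the 8 untreated fetuses r between the level of HBB and that of CATHL3, CATHL1B and BAC5 was -0.178, 0.004 and 0.144, with exact permutation p of 0.671, 0.992 and 0.738 (all 0.992 after adjustment over the 3). Spearman's rho was -0.143, 0.119 and 0.143 (exact permutation p = 0.752, 0.793 and 0.752). Without the fetuses of sets 3 and 8, the farthest from the median HBB level, r was -0.292, -0.030 and -0.058. The untreated fetuses lay on slide 1 in 5 cases and on slide 2 in 3, too few for a value on either. Leaving out 1 fetus at a time moved r between -0.608 and 0.494 over the 3 genes, so 8 animals do not fix its sign. Whether the relation in twin ratios differs from that in untreated levels was not tested.

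**Figure D3:**
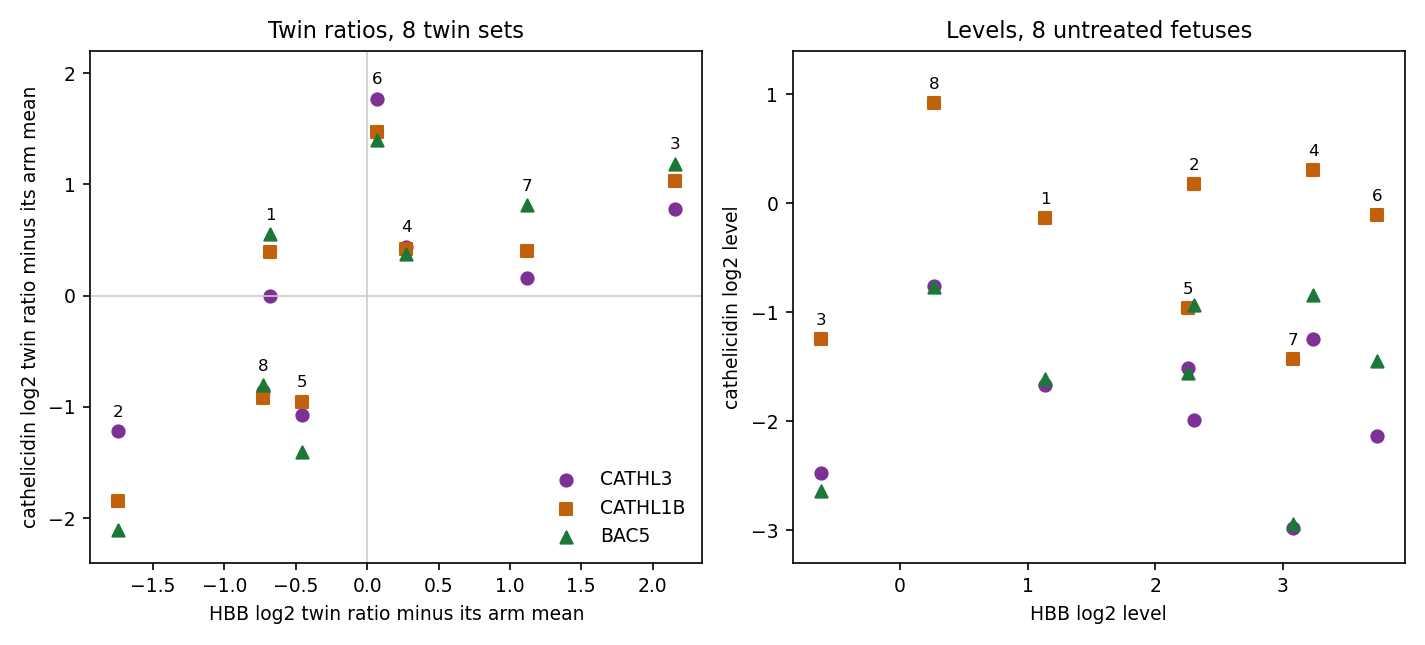
Left, cathelicidin log2 twin ratio against HBB log2 twin ratio, each minus its arm mean, in 8 twin sets; right, cathelicidin level against HBB level in the 8 untreated fetuses, with the twin set above the highest point. On the left r is 0.616 to 0.755, with set 2 lowest and set 3 highest on the HBB axis, and on the right r is -0.178 to 0.144.

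Other genes of the same families helped to place the members, and were chosen after their values were seen. SC5, the cathelin-related neighbour, was well above background on 10 of 16 arrays and on no group's 4 arrays in full, so it was not tested. Its signal was 1032.0, 152.4, 781.4 and 1776.8 units in the losartan fetuses of sets 1 to 4 and 97.8 to 287.7 units in their untreated twins. In sets 5 to 8 the angiotensin II fetuses had 117.1, 763.8, 163.0 and 108.5 units, and their untreated twins 81.3 to 309.2 units. The same 4 arrays led as for the member cathelicidins, namely the losartan fetuses of sets 1, 3 and 4 and the angiotensin II fetus of set 6, and r with CATHL3, CATHL1B and BAC5 over 16 arrays was 0.933, 0.923 and 0.950. HBBF, the fetal beta globin, had a probe well above background on 1 of 16 arrays, the losartan fetus of set 4, which was also the highest in HBB. It read 238.0 units there and 28.3 to 115.7 units on the other arrays. This was the only HBBF probe. It was designed on a sequence cluster and, unlike the cathelicidin probes, holds no polyadenylation signal. Whether its low signal came from the probe or from the transcript level was not tested. Binding of fetal beta globin transcripts to the HBB probes was not tested.

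Of the genes with a name, few followed the members. The mean of the 3 cathelicidins was set against 447 other named tested genes, each read by its brightest probe, over the 16 arrays, as a description with no test, since the arrays share their scaling and the losartan shift. The 5 with the highest r were PTGS1 (cyclooxygenase 1, 0.688), FGF7 (a fibroblast growth factor, 0.663), WT1 (a transcription factor of the epicardium, 0.657), MYC (a growth-related transcription factor, 0.635) and FLT3LG (a growth factor for blood cell precursors, 0.576). A dimmer probe of MYC had r = 0.741, above that of PTGS1, so the order depends on the probe. In the untreated fetuses alone their r was 0.029, -0.005, 0.306, 0.224 and 0.329, lower than over all arrays. The 5 named genes most like HBB were SPA17 (a sperm surface protein, 0.791), PDIA5 (a protein disulphide isomerase, 0.646), WT1 (0.582), LDHA (a lactate dehydrogenase subunit, 0.530) and GABPA (a transcription factor subunit, 0.520). In the untreated fetuses alone the r of these 5 was 0.776, -0.041, 0.404, 0.191 and 0.556, and SPA17 had r = 0.329 over twin ratios. None of the 5 genes most like the cathelicidins came near the r of 0.956 to 0.982 found among the cathelicidins. None of those most like HBB reached the r of 0.91 between the 2 HBB probes.

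Over all 8954 other tested probes with values on every array, 1 exceeded an r of 0.8 with the cathelicidin mean and 1 with HBB. The first, A_70_P033336, was designed on an expressed sequence tag of sheep fracture callus and had r = 0.959 with the cathelicidin mean (0.956 over twin ratios and 0.930 over untreated fetuses), where the next probe reached 0.788. The second, A_70_P040301, also from a tag, had r = 0.905 with HBB (0.916 over twin ratios and 0.891 over untreated fetuses), where the next reached 0.791. Neither has a gene name here, and both were singled out after their values were seen. Their last 30 bases are printed with AATAAA in capitals, so that they can be looked up.
A_70_P033336: gagagaattAATAAAcgtactttggcaaag
A_70_P040301: aaattcAATAAAcaggcctcaataggctgg
The twin ratios of A_70_P033336 were 1.34, 0.09, 1.73 and 2.28 in sets 1 to 4 and -0.65, 0.89, 0.31 and -0.33 in sets 5 to 8, which is the sign pattern of the cathelicidins in all 8 sets. Those of A_70_P040301 were 0.58, 0.51, 2.08 and 0.93 in sets 1 to 4 and -1.29, -0.42, -0.20 and -0.50 in sets 5 to 8. In the angiotensin II arm the estimate of A_70_P040301 was -0.60 (SE 0.26, adjusted p = 0.479, limma), below 0 in 4 of 4 sets like the second HBB probe. This likeness is a description, since the probe was picked by its r with HBB over these arrays. The longest run either shares with a member probe is 7 and 8 bases.

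**Figure D4:**
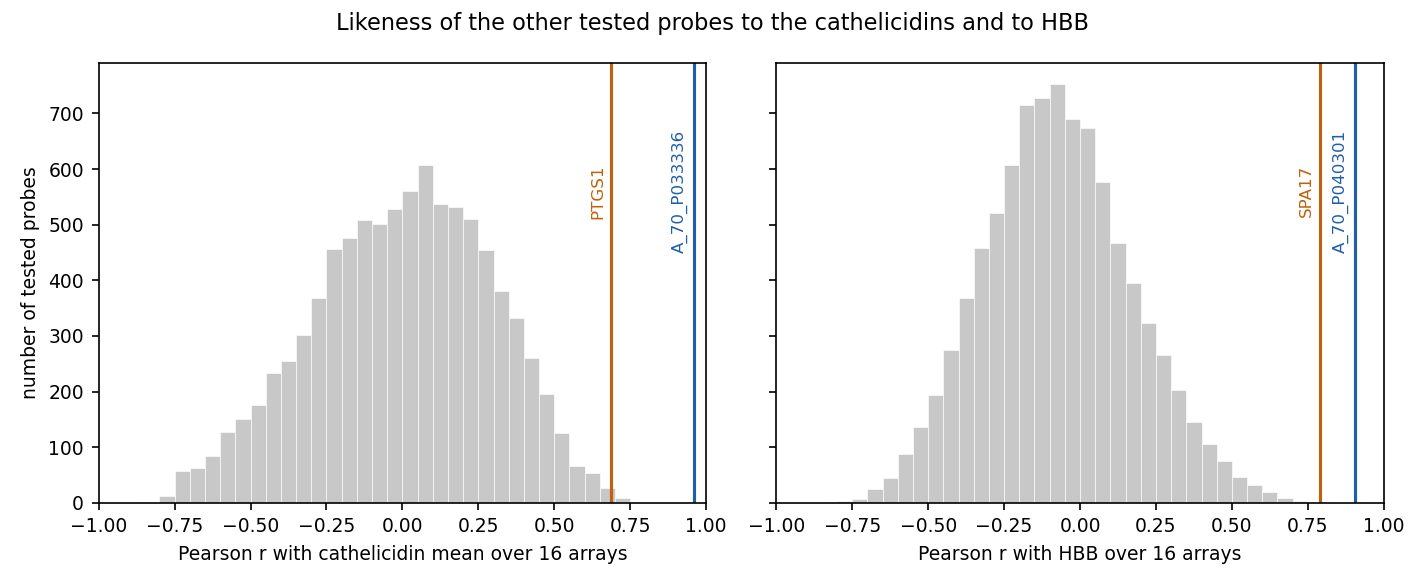
Number of tested probes (vertical axis) by their Pearson r over 16 arrays (horizontal axis, bins of 0.05) with the mean of the 3 cathelicidins (left) and with HBB (right), members left out; lines mark the most similar probe (blue) and the most similar named gene by its brightest probe (orange). A_70_P033336 at 0.959 and A_70_P040301 at 0.905 stand beyond all other probes. PTGS1 at 0.688 and SPA17 at 0.791 come nearest among brightest probes of named genes, and a dimmer probe of MYC, not marked, is at 0.741 on the left.

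Markers of blood cells, apart from the members, were mostly dim in this tissue. Of 27 neutrophil granule genes 4 were on the array by name and 0 were tested, and MMP9, a granule protease, was well above background on 0 of 16 arrays. LTF, lactoferrin of the secondary granules, was well above background on 1 array only, the losartan fetus of set 4 (147.1 units). It read 117.3, 53.1 and 49.1 units in the losartan fetuses of sets 1 and 3 and the angiotensin II fetus of set 6, and 25.3 to 31.0 units on the other 12 arrays, so the 4 brightest arrays were those of the cathelicidins, although 3 of these 4 readings were not well above background. Its r over 16 arrays was 0.904 with the cathelicidin mean and 0.298 with HBB. The other 2 granule genes did not share this pattern. LYZ, lysozyme, was well above background on 5 arrays and had r = 0.02 with the cathelicidin mean, and CHI3L1, a chitinase-like protein, was so on 3 arrays and had r = -0.041. Each of them was higher with losartan in 1 of 4 sets. Of the 7 neutrophil surface and oxidase genes on the array 2 were tested and neither passed in either arm. CYBB, an oxidase subunit shared with macrophages, had estimates of -0.44 with losartan (adjusted p = 0.473, limma) and 0.48 with angiotensin II (adjusted p = 0.481, limma), and CD14, a monocyte receptor, 0.17 (adjusted p = 0.659, limma) and 0.03 (adjusted p = 0.929, limma). ITGAM, CXCR1, FCGR2B and TLR4 were well above background on 0 arrays. ITGB2, the remaining gene of the 7, was well above background on at most 11 of 16 arrays per probe. It was not tested, and its r with the cathelicidin mean was -0.016. The 2 tested genes summed to 0.36 to 0.57 in the losartan fetuses and 0.44 to 1.06 in their twins, in units of the 75th percentile.

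The erythroid list had 4 genes beside HBB on the array. AHSP, a chaperone of alpha globin, and CA1, a red cell carbonic anhydrase, were well above background on 0 of 16 arrays. HBBF was so on 1, by its only probe. EPOR, the erythropoietin receptor, was tested and had estimates of -0.21 with losartan (adjusted p = 0.758, limma) and -0.25 with angiotensin II (adjusted p = 0.656, limma), with r = -0.236 to HBB. Its level, in units of the 75th percentile, was 0.07 to 0.17 with losartan and 0.13 to 0.17 in the untreated twins. Both platelet genes on the array, ITGB3 and SELP, were well above background on 0 arrays.

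A list of genes linked to the attraction of neutrophils was measured too, which holds chemokines, cytokines, colony-stimulating factors and the complement gene C3. Of 10 on the array 5 were tested, and the median estimate was -0.28 with losartan and 0.66 with angiotensin II, against medians of 0.01 and -0.02 over all tested probes. The regakine 1-like chemokine LOC100101238 had an estimate of 0.95 with angiotensin II, above 0 in 4 of 4 sets (SE 0.19, adjusted p = 0.403, limma). CXCL8 had 0.66 (SE 0.21, adjusted p = 0.457, limma), higher in 3 of 4 sets, and CXCL1 1.65 (SE 0.79, adjusted p = 0.481, limma), higher in 2 of 4, both attracting neutrophils, and IL1B, an inflammatory cytokine, had 0.30 (SE 0.14, adjusted p = 0.481, limma). None passed in either arm. With losartan 4 of the 5 estimates were below 0, and the r of all 5 with the cathelicidin mean was between -0.288 and -0.114. The summed level was 9.8 to 21.0 with losartan and 8.1 to 172.7 in the untreated twins, the upper end of which was on the array of set 2, which stood apart. It was 14.7 to 150.5 with angiotensin II and 13.1 to 17.6 in the untreated twins of that arm. The angiotensin II arrays of sets 7 and 8 stood apart as well. Estimates of these genes without sets 2, 7 and 8 are not given here, and the part of those arrays in the medians was not tested.

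Tissue cells and lymphoid cells likewise gave no call beside the members. The 3 tested lymphoid genes had estimates of -0.48 to 0.13 with losartan and -0.25 to 0.27 with angiotensin II. The 6 tested macrophage and monocyte genes, among them the signalling adaptor TYROBP and the protease CTSB, had -0.14 to 0.01 with losartan and -0.20 to 0.36 with angiotensin II. Of these CTSB was higher with angiotensin II in 4 of 4 sets (0.33, SE 0.12, adjusted p = 0.466, limma). The 6 tested fibroblast genes all had estimates below 0 with losartan, from -0.54 to -0.14, with VIM, an intermediate filament protein, at -0.46 (SE 0.11, adjusted p = 0.109, limma) and at r = -0.735 with the cathelicidin mean. KDR and PECAM1, the 2 tested endothelial genes, had -0.34 and -0.03 with losartan and 0.12 and -0.14 with angiotensin II. MB and TPM1 had estimates of -0.17 to 0.07 over both arms. Summed levels of the 2 cardiomyocyte genes were 127.7 to 148.1 with losartan and 127.6 to 152.2 in the untreated twins. No list member passed in either direction in either arm. The part of any of these cells in the member values was not tested.

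**Figure D5:**
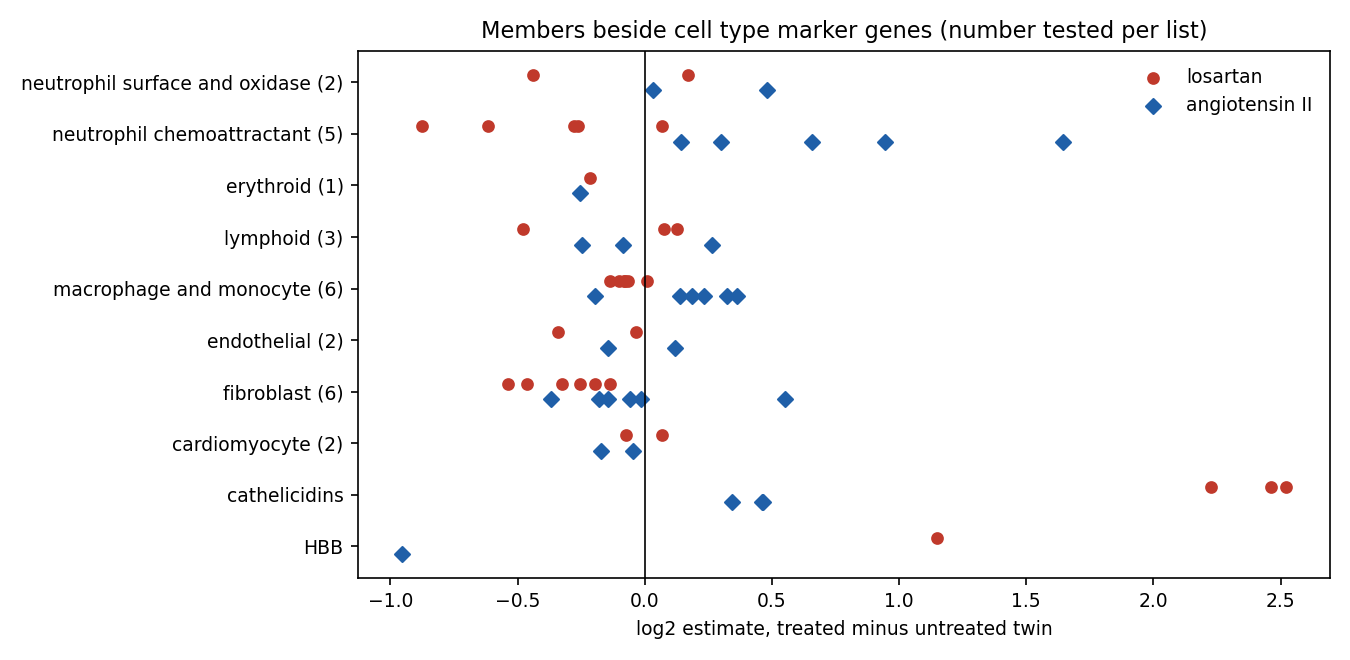
Log2 estimates (horizontal axis, treated minus untreated twin) for the tested marker genes of 8 cell type lists, with the number tested in brackets, and for the members, for losartan (circles) and angiotensin II (diamonds). The 3 cathelicidins lie at 2.23 to 2.52 with losartan, where the marker genes lie between -0.88 and 0.17, and the cathelicidins were chosen by their losartan values.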

How the data were processed

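Total RNA of 16 fetal left ventricles was amplified, labelled with Cy5 and hybridized to a 1-colour Agilent sheep array, per the labels' protocols. The deposited scanner files hold spot intensity, background-subtracted by Agilent Feature Extraction 10.7.3.1 with no scaling between arrays, per the file headers. The authors' deposited value table holds natural log values close to the log of the mean signal (r of at least 0.9978 per array, slope 0.946 to 0.980, medians 5.75 to 5.77), with its normalization not given in the sources used here, and served as an alternative.

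Spots of a probe were averaged after 3 to 9 outlier spots per array were left out. Genes were named through the RefSeq table, by accession first and then by the other identifiers and descriptions in the files, which named 1444 of 15008 probes. The brightest tested probe stood for a gene. Effects were estimated over the 16 arrays with limma 3.58.1 and statmod 1.5.0 under R 4.3.3, with 8 twin sets as fixed blocks and 1 term per treatment (6 residual and 3.69 prior degrees of freedom). Adjustment was by Benjamini-Hochberg over 8966 probes, two-sided, with a threshold of 0.05. Correlations used all 576 permutations within arms or all 40320 over untreated fetuses. The fit was tested on simulated data. Figures used Python 3.11.15 and matplotlib 3.10.9.

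The labels state the twin pairs, and deviations of twins from their group means correlated at -0.04 to 0.53, above 0.1 in 6 of 8 sets. Alternatives changed the background correction, scaling, source, filter, slide, block, sets and probes. Beyond the members, the text names the 5 genes most like the cathelicidins and HBB. It gives estimates by name for up to 4 of each marker list, by smallest p with angiotensin II or highest r. Some other list genes are named without an estimate. Members and lists were chosen with earlier results of these data known.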

Additional observations from a re-analysis of the deposited data

How the results depend on the processing

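The alternatives kept the sign of the losartan estimates of CATHL3 (2.24 to 2.93), CATHL1B (2.06 to 3.08), BAC5 (1.71 to 2.93) and HBB (0.43 to 1.73), and the sign of the HBB estimate with angiotensin II (-1.33 to -0.71). With angiotensin II no member passed in any of 21 alternatives. Leaving out 1 twin set at a time gave -0.12 to 0.82 for CATHL3, -0.15 to 0.66 for CATHL1B and -0.007 to 0.93 for BAC5, the lowest value each time without set 6. With no replicate block, that is with the pairing by twin set left out, the estimates were 0.47 for CATHL3, 0.34 for CATHL1B, 0.46 for BAC5 and -0.95 for HBB, none of which passed, and 0 probes passed with losartan against 109 with the block. The number of probes passing with losartan was also 433 in the authors' value table, 57 with the filter on all arrays, 68 with a random twin block, 41 in the arm alone and 0 in the twin sets on 1 slide, and 34 to 98 without 1 set. With angiotensin II 1 probe passed without sets 2, 7 and 8. The r of HBB with CATHL1B and BAC5 over twin ratios passed with the mean over probes (0.812 and 0.805, adjusted p = 0.0391, exact permutation). Without 1 set it was 0.435 to 0.912 for CATHL3, 0.514 to 0.871 for CATHL1B and 0.559 to 0.845 for BAC5. In untreated fetuses it was -0.608 to 0.136, -0.462 to 0.374 and -0.325 to 0.494. The covariations were not run without sets 2, 7 and 8 or in the sets on 1 slide, which leave under 6 sets. They were not run under the block and slide settings either. The twins of sets 1, 4, 5 and 7 lay on different slides. A shift between slides can therefore enter the ratios of these sets, and it was not removed from the correlations. The cause of these changes was not tested. Probes dim on most arrays, such as LTF, are limited by signal over background, and 4 arrays per group limit the precision of every estimate.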
